A study of Mus musculus with 6 samples.

Results

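The interferon response and antigen-presentation genes of the array were chosen by name: every gene whose array name starts with H2-, Ifit or Stat, the Irf, Ifi, Ifitm, Oas and Gbp families, and B2m, Tap1, Tap2, Tapbp, Mx1, Mx2, Isg20, Usp18, Rsad2 and Ifnar1. This rule used no measured value. It found 95 genes with 149 probes, among 27670 genes with 41174 probes on the array, and 91 of the 95 genes passed the filter on dim spots and were tested. H2-M9, H2-M10.5, H2-M10.6 and H2-T3 did not pass it, and the class II regulator Ciita had no probe under that name. Irf9 was not found by its array name either, and its values are given as those of a neighbour of the set. H2-Eb2 carries an older name on the array, so it is no member and is counted with the other genes.

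The samples were kidneys (metanephroi) dissected from outbred CD1 mouse embryos at stage E13.5 and cultured on filters. Kidneys of a pair were given either Scriptaid, a hydroxamic acid that inhibits histone deacetylases, at 2.0 µg/ml for 6 hours, or Nullscript, a related compound used as the inactive control, at the same dose and time. The number of embryos behind each replicate was not given in the labels. There were 3 biological replicates, each hybridised to 2 two-colour Agilent arrays with the dyes exchanged, so 6 arrays in all. All 10 embryonic kidney markers checked were well above background on all 6 arrays, as were 91.5% to 96.5% of all spots per array and dye.

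Which drug each channel held is open to doubt. Read by the dye fields, 4 of 4 genes known from other cells to rise with deacetylase inhibitors were lower in the Scriptaid-labelled channel, among them Gsn (log2 ratio -1.04) and Txnip (-1.01). All 4 genes known to fall were higher in that channel, among them Ccnd1 (1.90), Myc (1.71) and Tyms (0.73). Other probes lay between 0.30 and 1.76 for Myc and between -0.02 and 0.74 for Tyms. These genes were chosen with earlier results of these data known, so they do not settle which drug a channel held. Every ratio below is therefore the Scriptaid-labelled channel over the Nullscript-labelled channel, on the log2 scale, and every sign would turn if the drug names were exchanged.

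Interferons bind receptors on the cell surface that activate the Jak kinases, which phosphorylate Stat transcription factors. Stat2 acts in a complex with Irf9 that binds the interferon-stimulated response element (ISRE) in the promoters of antiviral genes, whereas Stat dimers bind the STAT site. MHC class I molecules, made of a heavy chain encoded by H2 genes and the light chain B2m, display peptides that Tap1 and Tap2 carry into the endoplasmic reticulum, and class II molecules display peptides taken up by professional antigen-presenting cells. Embryonic tissues are known for low class I expression compared with adult tissues.

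Of the 91 tested genes, 22 were higher in the Scriptaid-labelled channel (24.2%) and 34 were higher in the Nullscript-labelled channel (37.4%), while 35 did not pass (limma, Benjamini-Hochberg adjusted p under 0.05 over all genes). The background was high: 22.5% of all 26488 genes tested were higher in the Scriptaid-labelled channel and 23.7% in the Nullscript-labelled channel. The share of members higher in the first channel was thus near the background, and the share higher in the second was above it. The 34 include 8 class I heavy chains of the K, D and Q regions, near-identical copies that are not independent measurements. The median log2 ratio of the members was -0.02, against -0.01 for all genes tested. With a difference of at least 1.5-fold also required, 8 of the 91 members were higher in the Scriptaid-labelled channel (background 6.38%). In the Nullscript-labelled channel 16 of the 91 were higher (background 4.53%), and 8 of these 16 were the same heavy chains. No member reached a 2-fold difference towards the Scriptaid-labelled channel, and 5 did towards the Nullscript-labelled channel, namely Irf8, H2-K1, Stat2, H2-D1 and H2-Q10. Of all 26488 genes tested, 449 passed with a 2-fold difference towards the Scriptaid-labelled channel and 355 towards the Nullscript-labelled channel. Of the 56 genes that passed, 54 had all 6 arrays on the same side of 0. The exceptions were Isg20 and Ifitm2, each with 1 array on the other side.

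The array often carried several probes of a gene, and each gene is represented by its brightest probe. Counted by probe, 33 of 142 tested probes were higher in the Scriptaid-labelled channel (23.2%, against 23.5% of all probes) and 53 in the Nullscript-labelled channel (37.3%, against 21.8%). For 26 of the genes that passed there were 41 further tested probes. Of these, 38 had the sign of the brightest probe, 29 of them past the threshold, and the 3 probes of opposite sign did not pass. Sizes often differed between probes of a gene.

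The MHC class I heavy chains of the K, D and Q regions were the part of the set with the most uniform difference. Of 9 tested, 8 were higher in the Nullscript-labelled channel and none in the Scriptaid-labelled channel (background 23.7% and 22.5%), with a median log2 ratio of -0.99. The light chain B2m went the other way, and the T and M region genes, which encode class I relatives with restricted or specialised roles, were split. These heavy chain genes are near-identical copies of each other and vary between mouse strains, so a probe can bind RNA of more than 1 of them, and the 8 genes are not 8 independent measurements.

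H2-K1, which encodes the K heavy chain that presents peptides to cytotoxic T cells, had log2 ratios of -1.39, -1.17 and -1.37 in replicates 1, 2 and 3. It averaged 14.12 in the Scriptaid-labelled channel and 15.43 in the Nullscript-labelled channel on the log2 intensity scale, a 2.48-fold difference (log2 ratio -1.31 ± 0.13, SD, n = 3, limma adjusted p = 0.000155). All 3 replicates lay close together and well below 0. Its other 2 probes had ratios of -0.99 and -0.63. The brightest probe was saturated in the Nullscript-labelled channel on 2 of 6 arrays, and leaving out saturated spots did not end the call.

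H2-D1, the D heavy chain, had log2 ratios of -1.31, -1.04 and -1.09 in the 3 replicates (mean -1.15 ± 0.14, SD, n = 3, limma adjusted p = 0.000217). Its second probe stood at -0.01, so the difference was measured by 1 of 2 probes, and the mean of both gave -0.58. H2-D4, listed as a pseudogene in the RefSeq table, stood at -0.86.

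Among the Q region genes, which encode non-classical chains, H2-Q10 had log2 ratios of -1.23, -0.86 and -0.92 (mean -1.01 ± 0.20, SD, n = 3, limma adjusted p = 0.000551). H2-Q7, which encodes a chain of the Qa-2 antigen, had -1.19, -0.84 and -0.94 (mean -0.99 ± 0.18, SD, n = 3, limma adjusted p = 0.000464). In both genes replicate 1 lay farthest from 0, and the same order was seen in H2-Q1, H2-Q2 and H2-Q5. Those 3 genes averaged between -0.94 and -0.99. H2-Q8 was the exception, at 0.08 ± 0.07 (SD, n = 3, limma adjusted p = 0.163). The other probes of H2-Q1 stood at -0.72 and -0.34, and those of H2-Q10 reached up to -0.12.

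**Figure D1:**
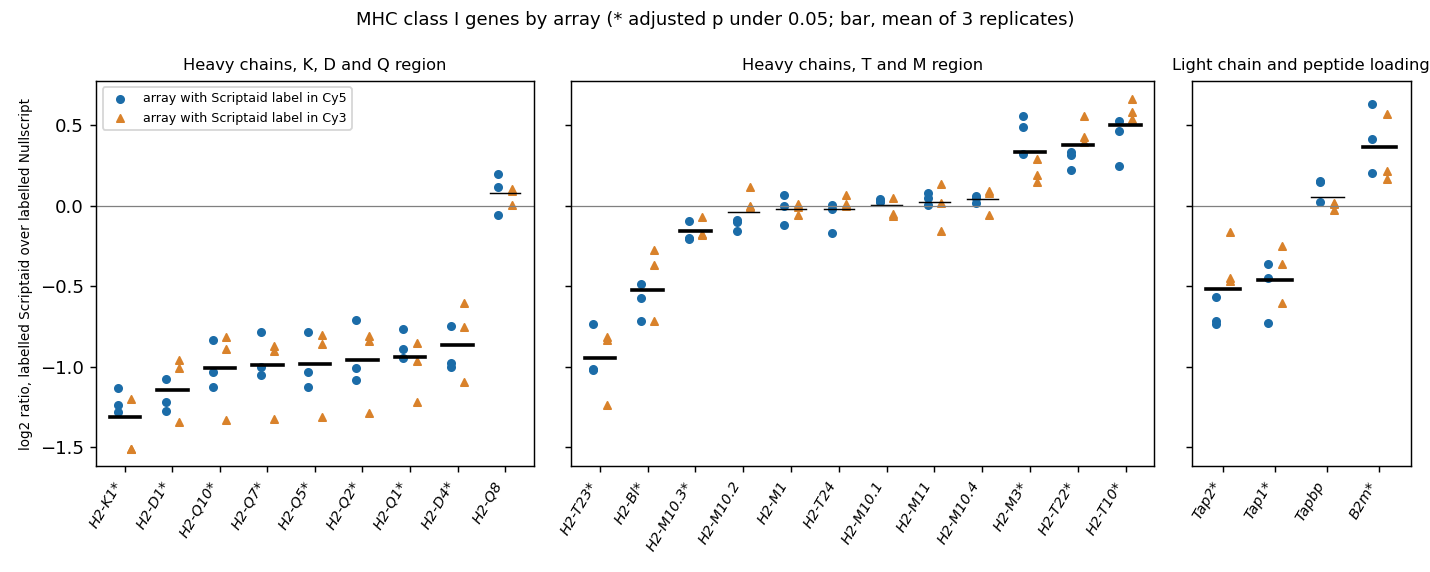
Log2 ratio of the Scriptaid-labelled channel over the Nullscript-labelled channel for the tested MHC class I genes (x axis, genes; y axis, log2 ratio). Points are single arrays, circles and triangles the dye orientations, and bars the means of 3 replicates, thick where the gene passed the threshold. The K, D and Q region genes lie near -1 except H2-Q8, while B2m lies above 0 on all 6 arrays.

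In the T region, H2-T23, which encodes the Qa-1 chain recognised by receptors of natural killer cells, had log2 ratios of -1.13, -0.78 and -0.92 (mean -0.94 ± 0.18, SD, n = 3). H2-Bl stood at -0.52 and was also higher in the Nullscript-labelled channel. H2-T10 and H2-T22, whose products are ligands of some gamma-delta T cells and need no peptide, were higher in the Scriptaid-labelled channel, by 0.50 and 0.38, although the second probe of H2-T22 stood at 0.04 and did not pass. H2-T24 did not pass, so of 5 T region genes tested 2 were higher in each channel (background 22.5% and 23.7%). In the M region, 5 of 7 tested genes did not pass, against 14238 of all 26488 genes tested. H2-M3, which presents formylated peptides, stood at 0.33, with a second probe at 0.14, and H2-M10.3 stood at -0.15. H2-M10.1, H2-M10.4 and H2-M11 were not well above background on every array.

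B2m, the light chain that every class I heavy chain needs to reach the surface, had log2 ratios of 0.60, 0.18 and 0.31 (mean 0.37 ± 0.21, SD, n = 3, limma adjusted p = 0.0195). It averaged 13.24 in the Scriptaid-labelled channel and 12.88 in the Nullscript-labelled channel. All 3 replicates lay above 0 but they spread widely, and its other 2 probes stood at 0.23 and 0.39. The call was lost with the slide as a term in the fit (adjusted p = 0.0682) and without replicate 3 (adjusted p = 0.0842). The sign of B2m was thus opposite to that of the 8 called heavy chains of the K, D and Q regions, and the same as that of H2-T10, H2-T22 and H2-M3.

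Of the 3 peptide-loading genes, both transporter subunits were higher in the Nullscript-labelled channel. Tap1 had log2 ratios of -0.67, -0.36 and -0.35 (mean -0.46 ± 0.18, SD, n = 3, limma adjusted p = 0.00555). Tap2 had -0.60, -0.58 and -0.36 (mean -0.52 ± 0.13, SD, n = 3, limma adjusted p = 0.00155). Both differences were smaller than those of H2-K1 and H2-D1. Tapbp, the tapasin that bridges the transporter and the heavy chain, stood at 0.05 ± 0.03 (SD, n = 3, limma adjusted p = 0.212). Under median centring in place of loess, Tapbp passed at 0.14. In the signals as the scanner software processed them, with no offset added, Tap1 stood at -0.72.

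Promoter sequences of the class I genes are shown for H2-K1, H2-D1 and B2m, because the ratios of these 2 heavy chains and of the light chain differed in sign. They come from the RefSeq promoter table (mouse build GRCm38.p6), which held 74 of the 95 members, in windows of 250 bases before to 50 bases after the gene start. The 250 bases before the start are printed, 5′ to 3′ on the gene's strand. For H2-K1 (chr17:34000348-34000597, minus strand) and H2-D1 (chr17:35262844-35263093, plus strand) the capitals mark the longest run of bases that both windows share. For B2m (chr2:122147437-122147686, plus strand) they mark the core of the ISRE, a pair of GAAA with any 2 bases between them, searched on both strands.
H2-K1: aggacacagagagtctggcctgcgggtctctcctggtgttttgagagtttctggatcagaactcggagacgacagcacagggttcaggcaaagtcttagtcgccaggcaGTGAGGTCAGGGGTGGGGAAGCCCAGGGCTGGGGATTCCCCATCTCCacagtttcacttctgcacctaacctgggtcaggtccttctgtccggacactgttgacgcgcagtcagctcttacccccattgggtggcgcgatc
H2-D1: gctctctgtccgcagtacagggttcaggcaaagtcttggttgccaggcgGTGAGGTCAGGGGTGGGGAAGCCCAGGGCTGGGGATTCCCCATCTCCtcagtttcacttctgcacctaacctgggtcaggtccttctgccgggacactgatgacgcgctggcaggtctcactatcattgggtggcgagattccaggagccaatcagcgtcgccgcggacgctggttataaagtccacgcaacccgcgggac
B2m: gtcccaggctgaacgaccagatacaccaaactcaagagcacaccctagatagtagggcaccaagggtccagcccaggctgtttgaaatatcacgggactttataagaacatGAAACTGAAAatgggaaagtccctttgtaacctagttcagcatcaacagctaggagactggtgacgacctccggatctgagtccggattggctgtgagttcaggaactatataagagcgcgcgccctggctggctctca
Positions are counted from the gene start, so that -1 is the last base before it. The shared run is 47 bases long and begins at position -141 in H2-K1 and at -201 in H2-D1, and no other gene of the table held it. The ISRE core begins at -139 in B2m, and no exact match to it was found in the windows of H2-K1 and H2-D1. The search allowed no mismatch, so it would miss an ISRE that differs from this core. The windows of H2-K1 and H2-D1 thus cannot be said to lack the element. A match describes letters in a window, not a site in use.

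The MHC genes lie together on chromosome 17, and some stretches of neighbours shared a call. From Tapbp to H2-M3 in the RefSeq gene order, 33 members were tested, of which 5 were higher in the Scriptaid-labelled channel (15.2%) and 17 in the Nullscript-labelled channel (51.5%). Of the 119 other tested genes between them, 26 were higher in the Scriptaid-labelled channel (21.8%) and 30 in the Nullscript-labelled channel (25.2%). H2-D1, H2-Q1, H2-Q2, H2-Q5, H2-Q7 and H2-Q10 follow each other in this order, and their brightest probes all lay near -1. H2-Q8 (0.08, which did not pass) and H2-D4 (-0.86) were left out of this order and its counts. Both lie on other sequences of chromosome 17 in the RefSeq table. The genes of this run are near-identical copies of each other. Their calls, which count in the 17 above, are thus not independent. Other probes of H2-D1, H2-Q1 and H2-Q10 reached up to -0.01, -0.34 and -0.12. Elsewhere neighbours went opposite ways. H2-DMa stands next to H2-DMb2 and H2-DMb1, with ratios of -0.46, 0.38 and 0.59, and H2-T23 next to H2-T22, with -0.94 and 0.38. H2-Ke2 (-0.38), which is Pfdn6 in the RefSeq table and encodes a prefoldin subunit, and H2-Ke6 (-0.63), which encodes a steroid dehydrogenase, present no antigen. They are members by name only, and both were higher in the Nullscript-labelled channel.

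**Figure D2:**
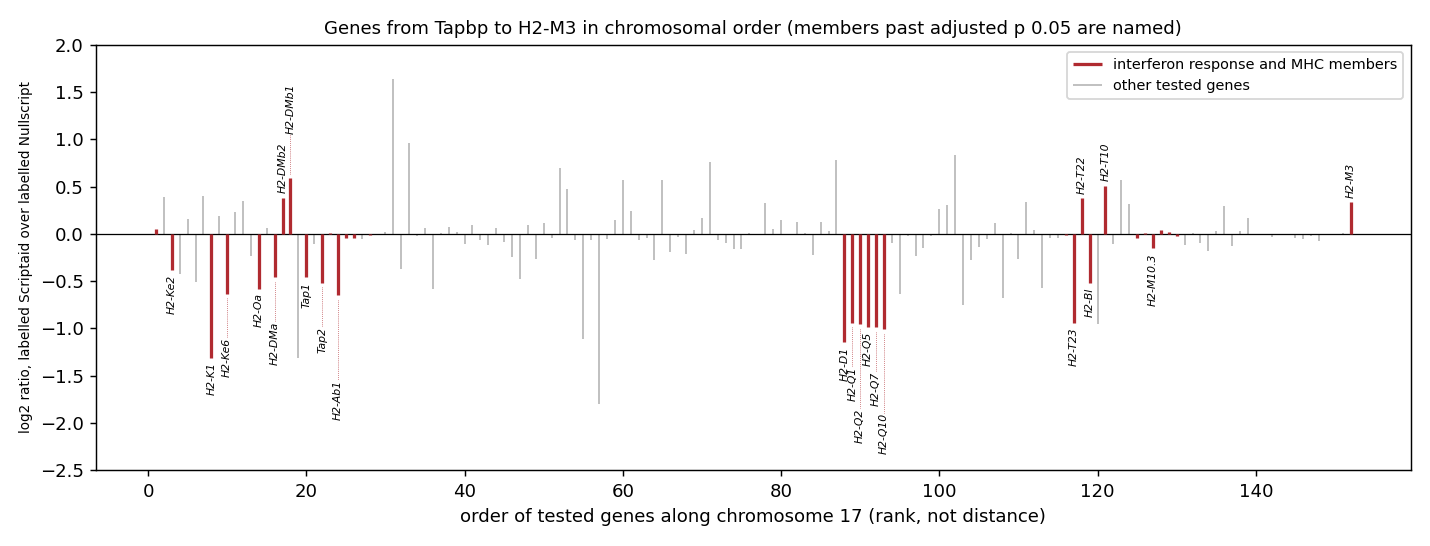
Log2 ratio (y axis) of the tested genes from Tapbp to H2-M3, in their order along chromosome 17 (x axis, rank and not distance). Red lines are the 33 members and grey lines the 119 other genes. The run from H2-D1 to H2-Q10 points downwards in every gene shown, while the class II loading genes and the T region hold neighbours of opposite sign. H2-Q8 and H2-D4 lie on other sequences of chromosome 17 and are not shown.

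Of the 9 class II genes, 2 were higher in the Scriptaid-labelled channel, 3 in the Nullscript-labelled channel, and 4 did not pass, shares near the background of 22.5% and 23.7%. H2-Ab1, the beta chain of the I-A molecule, had log2 ratios of -0.63, -0.71 and -0.62 (mean -0.65 ± 0.05, SD, n = 3, limma adjusted p = 0.0002). Its replicates were nearly equal, and its other 3 probes lay between -0.61 and -0.34. Its partner, the alpha chain H2-Aa, stood at -0.04 ± 0.07 (SD, n = 3) and did not pass, and neither did H2-Ea, H2-Eb1 or H2-Ob.

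The chains that load class II molecules in endosomes were split. H2-DMb1, a beta chain of the peptide exchanger DM, had log2 ratios of 0.69, 0.45 and 0.62 (mean 0.59 ± 0.12, SD, n = 3, limma adjusted p = 0.000821). H2-DMb2, the second DM beta chain, stood at 0.38 ± 0.02 (SD, n = 3), with another probe at 0.13. H2-DMa, the alpha chain of the same exchanger, had -0.46, -0.44 and -0.49 (mean -0.46 ± 0.03, SD, n = 3, limma adjusted p = 0.000318), and H2-Oa, the alpha chain of the DM inhibitor DO, had -0.65, -0.47 and -0.62 (mean -0.58 ± 0.10, SD, n = 3, limma adjusted p = 0.000595). A second probe of H2-Oa stood at -0.79. The 3 replicates lay on 1 side of 0 in each of these 4 genes, and the alpha and beta chains of DM differed in sign.

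Class II expression is a property of a few cell types, so markers of leukocytes and macrophages were set beside it. Of 13 such markers, 6 were higher in the Scriptaid-labelled channel and 3 in the Nullscript-labelled channel (background 22.5% and 23.7%). All 13 were well above background on every array, as were 91.5% to 96.5% of all spots per array and dye. Being above background thus does not show that such cells were present. The median log2 ratio of the 13 markers was 0.06. Their summed signal lay between 13.61 and 13.74 in the Scriptaid-labelled channel and between 13.42 and 13.62 in the Nullscript-labelled channel on the log2 scale. Cd3e was the brightest of the 13, at 12.04 and 12.18 in these channels, and so weighed most in the sum. Ptprc (CD45) stood at 1.08, with its other probes between -0.11 and 0.15, Lyz2 (lysozyme) at 0.89, with another probe at 0.18, and Cd14 at 0.59. The 3 markers higher in the Nullscript-labelled channel were Csf1r (-0.14), Cd3e (-0.13) and Cx3cr1 (-0.11). Their other probes lay between -0.05 and 0.12 for Csf1r, at 0.02 for Cd3e and at 0.33 for Cx3cr1. Adgre1, Cd68, Itgam and Cd79a did not pass. Endothelial markers moved more uniformly, with 7 of 8 higher in the Scriptaid-labelled channel, including Icam2 (1.47), Esam (1.07) and Cdh5 (0.95). Their summed signal was 14.70 to 14.72 in the Scriptaid-labelled channel and 13.81 to 14.09 in the Nullscript-labelled channel. Of 10 kidney markers, 7 were higher in the Scriptaid-labelled channel, among them Wt1 (0.97), Hoxd11 (0.80) and Foxd1 (0.56), and none was lower. In whole kidneys, fewer cells of a type and less RNA per cell cannot be told apart, and the part of these cell types in the results was not tested.

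The transcription factors of the pathway held some of the largest differences of the set, in both directions.

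Stat2, which joins Irf9 in the complex that binds the ISRE, had log2 ratios of -1.24, -1.11 and -1.27. It averaged 10.18 in the Scriptaid-labelled channel and 11.39 in the Nullscript-labelled channel, a 2.30-fold difference (log2 ratio -1.20 ± 0.09, SD, n = 3, limma adjusted p = 0.000137). The replicates differed little beside the size of the difference. Irf9, its partner in the complex, stood at -0.04 ± 0.06 (SD, n = 3, limma adjusted p = 0.426), with replicates on both sides of 0. On arrays with Scriptaid in Cy3 alone Irf9 passed at -0.18. The type I receptor chain Ifnar1 stood at 0.08 ± 0.02 (SD, n = 3, limma adjusted p = 0.067), and passed at 0.18 under median centring.

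Stat3, which transmits signals of interleukin 6 and related cytokines, had log2 ratios of -1.06, -0.75 and -0.75 (mean -0.86 ± 0.18, SD, n = 3, limma adjusted p = 0.000702). Its second probe stood at -0.08, and the mean of both gave -0.47. Stat5a stood at -0.35 ± 0.01 and its neighbour and close relative Stat5b at 0.44 ± 0.03 (SD, n = 3 each). The other 2 probes of Stat5b lay between -0.04 and -0.01, and the mean over its probes was 0.13. Stat6, the factor of interleukin 4 signalling, had 0.75, 0.53 and 0.65 (mean 0.64 ± 0.11, SD, n = 3, limma adjusted p = 0.000503), with other probes at 0.03 and 0.39 and a mean over the probes of 0.35. Stat5b and Stat6 were the only members whose ratio differed between the dye orientations past the threshold (2.2% of the members, against 5.67% of all genes). The ratio of Stat5b was 0.70 on arrays with Scriptaid in Cy5 and 0.19 on arrays with Scriptaid in Cy3. That of Stat6 was 0.84 and 0.45 on the same sets of arrays. Stat4 did not pass.

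**Figure D3:**
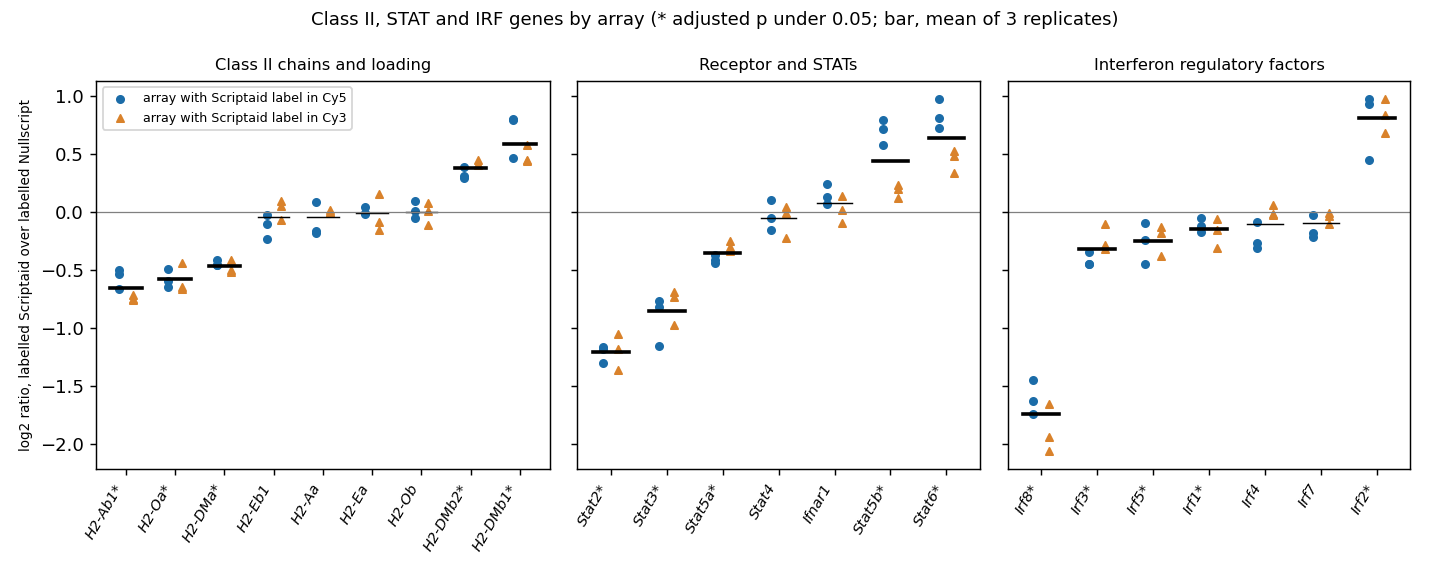
Log2 ratio of the Scriptaid-labelled channel over the Nullscript-labelled channel (y axis) for class II genes, the receptor and Stat genes and the interferon regulatory factors (x axis). Points are single arrays, by dye orientation, and bars the means of 3 replicates, thick where the gene passed the threshold. Irf8 lies lowest at -1.74 and Irf2 highest at 0.81, and the circles and triangles of Stat5b and Stat6 lie apart.

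Irf8, a factor needed for monocyte and dendritic cell development, had log2 ratios of -1.90, -1.55 and -1.78. It averaged 9.49 in the Scriptaid-labelled channel and 11.23 in the Nullscript-labelled channel, a 3.35-fold difference (log2 ratio -1.74 ± 0.18, SD, n = 3, limma adjusted p = 0.000155). This was the largest difference among the tested members. A second probe stood at -0.53, also higher in the Nullscript-labelled channel, and the mean of both gave -1.14.

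Irf2, which competes with Irf1 for its sites, had 0.97, 0.64 and 0.81 (mean 0.81 ± 0.17, SD, n = 3, limma adjusted p = 0.00068). It was higher in the Scriptaid-labelled channel. Irf3, activated by viral nucleic acid sensing, had -0.36, -0.27 and -0.33 (mean -0.32 ± 0.05, SD, n = 3), and its second probe stood at -0.41. Irf1, itself an early interferon target, had -0.10, -0.11 and -0.22 (mean -0.14 ± 0.06, SD, n = 3, limma adjusted p = 0.0247). That call was lost under 5 of 15 alternatives, and under median centring the ratio was -0.06. Irf5 stood at -0.25, and lost its call with the slide as a term and without replicate 3. Irf4 and Irf7 did not pass.

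The promoters of Stat2 and Irf8 are shown because these factors had the largest ratios in their families. In Stat2 (chr10:128270248-128270497, plus strand) the capitals mark an ISRE core on the opposite strand, and in Irf8 (chr8:120736108-120736357, plus strand) a pair of STAT sites, TTCNNNGAA.
Stat2: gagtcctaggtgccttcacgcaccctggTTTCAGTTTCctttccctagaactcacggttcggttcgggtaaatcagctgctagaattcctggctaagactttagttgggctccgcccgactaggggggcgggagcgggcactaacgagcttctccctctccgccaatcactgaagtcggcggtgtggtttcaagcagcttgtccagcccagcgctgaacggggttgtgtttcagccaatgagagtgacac
Irf8: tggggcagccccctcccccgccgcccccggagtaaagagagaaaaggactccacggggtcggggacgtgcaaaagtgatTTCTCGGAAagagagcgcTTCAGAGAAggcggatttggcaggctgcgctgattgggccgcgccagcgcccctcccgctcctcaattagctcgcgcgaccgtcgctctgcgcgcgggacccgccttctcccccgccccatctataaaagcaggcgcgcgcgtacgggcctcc
The ISRE match of Stat2 began at position -222, and the STAT matches of Irf8 at -171 and -153. A STAT site was found in the window of 15 matched members (20.3%), against 9.55% of all genes in the table. Irf1 held one at -90 and Irf2 held one at -224, beside an ISRE core at -241.

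Of 20 antiviral effector genes, 5 were higher in the Scriptaid-labelled channel, 4 in the Nullscript-labelled channel, and 11 did not pass (background 22.5% and 23.7%). These are the genes that a cell switches on after interferon, and they did not change together here. Ifit2, whose product binds viral RNA and blocks translation, had log2 ratios of 0.88, 0.61 and 0.73 (mean 0.74 ± 0.13, SD, n = 3, limma adjusted p = 0.000524), and its second probe stood at 0.54. Its neighbours in the family, Ifit1 and Ifit3, were also higher in the Scriptaid-labelled channel, at 0.24 and 0.25. Ifit1 lost its call under median centring (0.10) and without replicate 3. Oasl2, a relative of the oligoadenylate synthetases, had 0.63, 0.69 and 0.49 (mean 0.60 ± 0.10, SD, n = 3, limma adjusted p = 0.000554). All 6 arrays of Ifit2 and of Oasl2 lay above 0.

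In the other direction, Rsad2 (viperin), which makes an antiviral nucleotide, had log2 ratios of -0.60, -0.44 and -0.69 (mean -0.58 ± 0.13, SD, n = 3, limma adjusted p = 0.00106). Its other 2 probes stood at -0.20 and -0.15, and the mean over its probes was -0.31. Usp18, which removes Isg15 from proteins and damps receptor signalling, had -0.55, -0.36 and -0.41 (mean -0.44 ± 0.10, SD, n = 3, limma adjusted p = 0.00133). Oasl1 stood at -0.28 and Isg20, an exonuclease, at -0.11, and the call of Isg20 was lost under 6 of 15 alternatives, while its second probe stood at 0.02. Mx2 stood at 0.29, while Mx1 stood at -0.01 and did not pass. None of the 8 Oas1 genes tested, Oas2 or Oas3 passed, with ratios from -0.08 (Oas1e) to 0.05 (Oas1a).

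The offset of 50 added to each intensity shrinks the ratios of dim probes. In the scanner software's processed signals, which carry no such offset, Ifit1 stood at 0.47, Mx2 at 0.50, Oasl2 at 1.10, Usp18 at -0.68 and Oasl1 at -0.42, each with the same sign as before.

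Of 15 Ifi and Ifitm genes, 7 were higher in the Scriptaid-labelled channel and 2 in the Nullscript-labelled channel (background 22.5% and 23.7%). Ifi202b, a member of the DNA-sensing family of Ifi204 and Ifi205, had log2 ratios of 0.96, 0.60 and 0.71 (mean 0.76 ± 0.18, SD, n = 3, limma adjusted p = 0.00101). Ifi204 stood at 0.36, with other probes at 0.12 and 0.56, and Ifi205 at 0.18, with another probe at 0.02 that did not pass. Ifi203 of the same family stood at 0.00 and did not pass. Ifi44 had 0.60, 0.80 and 0.55 (mean 0.65 ± 0.13, SD, n = 3, limma adjusted p = 0.000744). It was well above background on 6 of 6 arrays in the Scriptaid-labelled channel and on 1 of 6 in the Nullscript-labelled channel, and its ratio was 2.27 in the scanner software's processed signals, so its size is uncertain. Ifi44 passed the filter on dim spots only through the channel where it was high, and it is 1 of the 7 genes above and of the 22 members higher in that channel.

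The genes of this group that were higher in the Nullscript-labelled channel were Ifi30 and Ifi35. Ifi30, the lysosomal thiol reductase that prepares antigens for class II loading, had log2 ratios of -0.82, -0.72 and -0.60 (mean -0.72 ± 0.11, SD, n = 3, limma adjusted p = 0.000424). Ifi35, a partner of Nmi, had -0.39, -0.46 and -0.49 (mean -0.45 ± 0.05, SD, n = 3, limma adjusted p = 0.000492). Replicates of both lay entirely below 0. Among the membrane proteins that hinder virus entry, Ifitm7, Ifitm2 and Ifitm1 stood at 0.30, 0.23 and 0.12. Ifitm1 lost its call under 7 of 15 alternatives and Ifitm2 under 4. Ifitm3 stood at -0.11 ± 0.20 (SD, n = 3, limma adjusted p = 0.355) with replicates on both sides of 0, and its probe was saturated on several arrays.

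The guanylate-binding proteins, GTPases that attack vacuoles holding pathogens, gave 1 call each way among 4 tested, near the background of 22.5% and 23.7%. The probe named Gbp4 on the array, whose accession is Gbp3 in the RefSeq table, had log2 ratios of 1.20, 0.88 and 0.87 (mean 0.98 ± 0.19, SD, n = 3, limma adjusted p = 0.000512). It averaged 7.93 in the Scriptaid-labelled channel and 6.94 in the Nullscript-labelled channel, the largest difference towards the Scriptaid-labelled channel among the tested members. In the scanner software's processed signals it stood at 1.70. Gbp5 stood at -0.12, -0.18 and -0.16 (mean -0.15 ± 0.03, SD, n = 3, limma adjusted p = 0.0109) and lost its call under 4 of 15 alternatives. Gbp1 (Gbp2b in the RefSeq table) and Gbp2 did not pass.

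**Figure D4:**
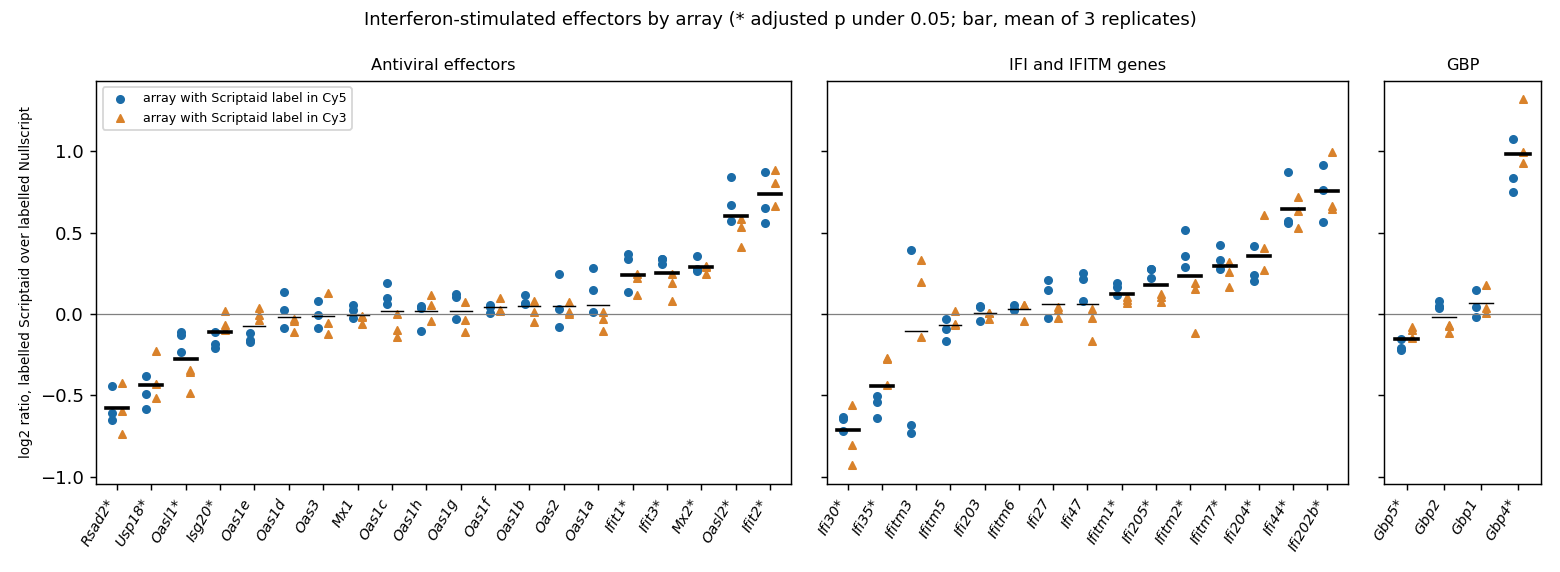
Log2 ratio of the Scriptaid-labelled channel over the Nullscript-labelled channel (y axis) for the antiviral effectors, the Ifi and Ifitm genes and the guanylate-binding proteins (x axis). Points are single arrays, by dye orientation, and bars the means of 3 replicates, thick where the gene passed the threshold. Gbp4 lies highest at 0.98 and Ifi30 lowest at -0.72, and the Oas genes lie around 0.

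The promoters of the probe's gene Gbp3, written here under its array name Gbp4, and of Ifit3 are shown because they hold paired ISRE cores. Capitals mark those cores in Gbp4 (chr3:142559794-142560043, plus strand), where they overlap, and in Ifit3 (chr19:34583279-34583528, plus strand), where they are apart.
Gbp4: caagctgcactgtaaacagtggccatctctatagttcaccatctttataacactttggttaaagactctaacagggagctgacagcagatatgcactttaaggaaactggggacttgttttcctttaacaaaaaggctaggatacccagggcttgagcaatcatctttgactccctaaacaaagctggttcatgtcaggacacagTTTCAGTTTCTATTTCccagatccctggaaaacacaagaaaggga
Ifit3: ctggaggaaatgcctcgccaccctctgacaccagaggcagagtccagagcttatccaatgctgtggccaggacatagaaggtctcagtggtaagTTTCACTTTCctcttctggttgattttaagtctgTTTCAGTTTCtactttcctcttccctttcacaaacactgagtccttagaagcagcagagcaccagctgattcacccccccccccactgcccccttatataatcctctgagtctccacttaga
The matches began at positions -45 and -39 in Gbp4 and at -156 and -122 in Ifit3. An ISRE core was found in 21 of the 74 matched members (28.4%), against 3.99% of all genes in the table. By call, it was found in 8 of 19 matched members higher in the Scriptaid-labelled channel, in 4 of 25 higher in the Nullscript-labelled channel, and in 9 of 26 that did not pass. Members with an exact core were thus found in every class of call, among them B2m and Gbp4 with positive ratios and Stat2, H2-T23 and Rsad2 with negative ones. The members were chosen as interferon response genes, so the share is a description of the set.

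Other genes of the pathway, from lists that had been set by function, were also tested, with a background of 22.5% of all genes higher in the Scriptaid-labelled channel and 23.7% in the Nullscript-labelled channel. Of 10 other interferon ligands and receptors, 2 were higher in the Scriptaid-labelled channel and 4 in the Nullscript-labelled channel. Il10rb, a receptor chain for interferon lambda and interleukin 10, stood at 0.96 and Ifnar2, the partner of Ifnar1, at 0.60, while Ifngr2, a chain of the interferon-gamma receptor, stood at -0.22. Of 15 Jak kinases and inhibitors of Stat signalling, 6 were higher in the Scriptaid-labelled channel and 3, a share near the background, in the Nullscript-labelled channel. The inhibitors Cish and Pias3 stood at 0.81 and 0.75, with another probe of Pias3 at 0.14, and Jak1, which serves all interferon receptors, stood at -0.59.

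Of 13 tested genes of nucleic acid sensing, 7 were higher in the Scriptaid-labelled channel and 2 in the Nullscript-labelled channel. Dhx58 (LGP2), a regulator of the RNA sensors, had log2 ratios of -1.78, -1.48 and -1.68 (mean -1.65 ± 0.15, SD, n = 3, limma adjusted p = 0.00014), with another probe at -0.16. The adaptor Sting1 stood at 0.77, and Ticam1, the adaptor of the receptor Tlr3, at -0.32. Of 27 tested interferon-stimulated genes outside the naming rule, 15 were higher in the Scriptaid-labelled channel and 4 in the Nullscript-labelled channel (background 22.5% and 23.7%), with a median of 0.16. Nmi, the partner of Ifi35, stood at 1.34, whereas the chemokine Cxcl10 stood at -1.17 and Bst2 (tetherin), which holds virus particles at the cell surface, at -1.16.

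Of 9 tested genes of class I peptide supply outside the rule, 3 were higher in each channel (background 22.5% and 23.7%). Psmb9, an immunoproteasome subunit encoded beside Tap1, had log2 ratios of -1.39, -1.17 and -1.39 (mean -1.32 ± 0.12, SD, n = 3, limma adjusted p = 0.000154). Its partner Psmb10 had 1.23, 1.01 and 1.02 (mean 1.08 ± 0.12, SD, n = 3, limma adjusted p = 0.000199), and the peptide trimmer Erap1 stood at 1.25. Subunits of the same immunoproteasome thus had log2 ratios of opposite sign. Of 5 class II partners, 3 were higher in the Scriptaid-labelled channel and 1 in the Nullscript-labelled channel (background 22.5% and 23.7%). The 3 were the regulators Rfxank (0.63) and Rfx5 (0.23, with another probe at 0.02) and the protease Ctss (0.17). The sign of Ctss turned on arrays with Scriptaid in Cy3 alone. Rfxap, a regulator of the same group, went the other way (-0.14, with another probe at -0.50), and Cd74 (-0.05) did not pass.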

How the data were processed

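RNA of paired kidneys was compared on 6 two-colour arrays, 2 per biological replicate. The deposited scanner files hold a mean and a background intensity per spot and dye, extracted with Agilent Feature Extraction 9.1.3.1, per the file headers. The deposited series table holds log10 ratios, which equalled the scanner files' log10 ratios with the sign turned where the dyes required it, and it was used as an alternative. Each array's direction was taken from the dye fields of the labels. The series text speaks of 4 arrays, and the fields of all 6 were followed.

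Intensities were corrected with normexp (offset 50) and normalised by loess within each array (limma 3.58.1, R 4.3.3), with control and outlier spots given no weight. Outlier spots were left out and saturated spots kept. Spots of a probe were averaged, and a probe was tested if at least 3 arrays were well above background in either drug's channel. The 2 arrays of a replicate were averaged, so that n = 3, and the ratio was tested against 0 with limma over all 26488 genes, each by its brightest probe, with Benjamini-Hochberg adjustment. Replicates are biological per the labels, and the number of arrays limits precision. The scripts were tested on simulated data.

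The pairing of the arrays comes from the labels, which give both arrays of a number as 1 biological replicate. Deviations of same-numbered arrays correlated at 0.61, 0.13 and 0.013, and those of differently numbered arrays of exchanged dyes at -0.42 to 0.26. The same-numbered value lay above all of these for replicate 1 only. The pairing within replicates 2 and 3 thus rests on the labels. Replicates 1 and 2 lay on 1 slide and replicate 3 on another. Log2 ratios correlated across the tested probes at 0.871 to 0.943 between arrays of the same dyes. Arrays of exchanged dyes correlated at 0.733 to 0.825 between replicates and at 0.752 to 0.857 within a replicate. Per array and dye, 91.5% to 96.5% of spots were well above background.

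Members, lists and roles were chosen with earlier results of these data known. Replicate values are given for up to 4 passing members per role with the largest ratios and for a set of core genes (among them Stat2, Irf1, Irf9, Ifnar1, B2m, H2-K1, H2-D1, Tap1, Tapbp). Up to 3 passing genes are named per list, and more for the leukocyte and macrophage markers and the class II partners. Values of some members are not reported here. RefSeq tables supplied names and promoters. Alternatives were background correction, centring, the series table, filters, saturated spots, the mean of all probes, each dye orientation, dye and replicate terms, slide, and each replicate left out.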

Additional observations from a re-analysis of the deposited data

Results flagged for a closer look

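Stat5b and Stat6 were set apart because their log2 ratios differed between the dye orientations by a test of the difference itself. The difference, arrays with Scriptaid in Cy5 minus arrays with Scriptaid in Cy3, was 0.51 for Stat5b (limma adjusted p = 0.00546) and 0.39 for Stat6 (limma adjusted p = 0.0254). The sign of both genes was the same in both orientations.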

How the results depend on the processing

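Of the 56 members that passed, between 47 (without replicate 3) and 56 kept their call under each of 15 alternatives, and no called member turned its sign under any of them. With the dye and the replicate block as terms over all 6 arrays, 6276 genes were higher in the Scriptaid-labelled channel and 6482 in the Nullscript-labelled channel, and all 56 member calls were kept, 22 and 34. Calls lost under at least 1 alternative were those of B2m, Gbp5, H2-M10.3, Ifi205, Ifit1, Ifitm1, Ifitm2, Irf1, Irf5 and Isg20. Leaving out 1 replicate at a time gave 3984 to 5688 genes higher in the Nullscript-labelled channel over all genes, the lowest count without replicate 3. A 1.5-fold minimum, added after the data had been seen, left 1691 genes, 8 members and 8 member probes higher in the Scriptaid-labelled channel, and 1201 genes, 16 members and 25 member probes higher in the Nullscript-labelled channel. Ctss stood at -0.0838 (adjusted p = 0.305) on arrays with Scriptaid in Cy3 alone, and the cause was not tested. With no offset in the background correction, Ifi44 stood at 1.61, Oasl2 at 0.99 and Mx2 at 0.47.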
